A study of Mus musculus with 18 samples.

Results

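The step between long-term hematopoietic stem cells (LT-HSC) and short-term hematopoietic stem cells (ST-HSC) was compared between the fetal liver (FL) and the adult bone marrow (BM) of C57Bl/6J mice. For each gene the measure was the interaction value, the difference LT-HSC minus ST-HSC in FL, minus the same difference in BM. It used 12 of the 18 arrays, in 4 of the 6 groups, and was computed for all 19505 genes of the array. The groups were LT-HSC and ST-HSC of FL from embryos at E13.5, and LT-HSC and ST-HSC of BM from adults aged 3 to 12 months, with 3 Affymetrix Clariom S arrays, lettered a, b and c, in each. Cells were lineage-negative, Sca-1-positive and Kit-positive (LSK), sorted by Cd150 and Cd48. The 6 arrays of multipotent progenitors (MPP) helped only to estimate the spread of each gene.

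Stem cells of the LT-HSC fraction can rebuild blood for life, while ST-HSC do so for a limited time and stand closer to the first lineage choices. As cells leave the LT-HSC state they are known to switch on, at low level, genes of the lymphoid and myeloid lineages, which is called lineage priming. Adult LT-HSC are also known to carry a part of the megakaryocyte and platelet program. Fetal liver stem cells divide rapidly, while most adult LT-HSC are quiescent.

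The deposited values are log2 signals, so that a difference of 1 is a 2-fold change, and no call of detection comes with them. Array medians lay between 7.76 and 7.85 over the 12 arrays. The interquartile range of the signals was 2.56 to 2.67 in 4 arrays, FL LT-HSC b, BM ST-HSC b, BM ST-HSC c and BM LT-HSC c, and 2.99 to 3.15 in the other 8. These 4 are named the narrow arrays. Leaving them out leaves array a alone in BM ST-HSC, so that every result of that fit rests on this array for that group. BM LT-HSC c also stood apart in markers of other blood cells. Its mean signal was 12.01 over the 15 neutrophil granule genes measured, against 10.42 in array a and 10.62 in array b of this group. It was 9.57 over 15 B cell genes, against 8.46 and 8.53, and 8.82 over 21 macrophage genes, against 7.71 and 7.77. Over 34 LT-HSC-associated genes it was lower, at 8.61 against 9.55 and 9.53. For some of the genes and lists in which it stood apart, values are given with and without this array. For others only the values with all arrays are given. In free text, the descriptions of all 12 arrays mention transplanted mice, with sgEzh2 given for FL LT-HSC a and FL ST-HSC a and sgLuc for the other 10. Groups were taken from the titles and source names. Codes in these descriptions carry a suffix on FL ST-HSC b and c and on all 3 BM LT-HSC arrays. Its meaning is not given in the sources used here, and in BM this suffix and LT-HSC cannot be told apart. Whether the arrays of a group stem from different animals is not stated, and the p-values therefore cover only sample-to-sample spread, which may be technical.

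The sort markers were checked first. Slamf1, which encodes Cd150, was at 9.12, 9.47 and 9.35 in FL LT-HSC, against 7.43, 7.44 and 7.60 in FL ST-HSC. In BM it was at 9.95, 9.82 and 9.20 in LT-HSC, against 8.22, 8.10 and 7.80 in ST-HSC. LT-HSC were thus higher by 1.82 ± 0.18 in FL and by 1.62 ± 0.18 in BM (log2 difference ± SE), and the groups did not overlap. Flt3, the receptor of multipotent and lymphoid-primed progenitors, was lower in LT-HSC in both sources, with -1.98 ± 0.15 in FL and -2.59 ± 0.15 in BM. Kit had an interaction value of 0.13 ± 0.17 and Cd48 of -0.67 ± 0.43, and neither passed. The Cd48 signal was 11.40 in BM LT-HSC c, against 9.58 and 9.98 in BM LT-HSC a and b.

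Of the 19505 genes, 74 (0.379%) had an interaction value with a Benjamini-Hochberg adjusted p under 0.05 in limma, and are named as called. In 64 genes (0.328%) the value was negative, so that LT-HSC stood lower against ST-HSC in FL than in BM, and in 10 (0.0513%) it was positive. At an unadjusted p under 0.05 there were 2464 genes, and the median over all genes was 0.003. In FL, 109 genes (0.559%) differed between LT-HSC and ST-HSC, 18 (0.0923%) higher and 91 (0.467%) lower in LT-HSC. In BM there were 334 (1.71%), 236 (1.21%) higher and 98 (0.502%) lower. Genes called in both sources numbered 30, which was 27.5% of the FL calls and 8.98% of the BM calls, and 24 of them went the same way. Among the 64 genes called with a negative value, 57 were lower in LT-HSC than in ST-HSC in FL and 61 were higher in LT-HSC in BM. Differences had opposite signs in 54 of the 64, against 57.2% of all genes. The 64 were chosen by the same values, so these counts are a description. The count of calls depended on single arrays, from 40 without BM ST-HSC c to 517 without BM LT-HSC c. In each of the 12 fits without 1 array, 38 of the 74 genes were called, and the sign of none of the 74 turned in any alternative tried. After quantile normalization 23 genes were higher and 70 lower, and with every array scaled to one interquartile range 18 were higher and 53 lower. Lower calls did not outnumber higher ones as clearly in other fits, with 173 higher and 344 lower without BM LT-HSC c and 45 higher and 57 lower without the 4 narrow arrays. With array weights 1105 were higher and 1054 lower.

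**Figure D1:**
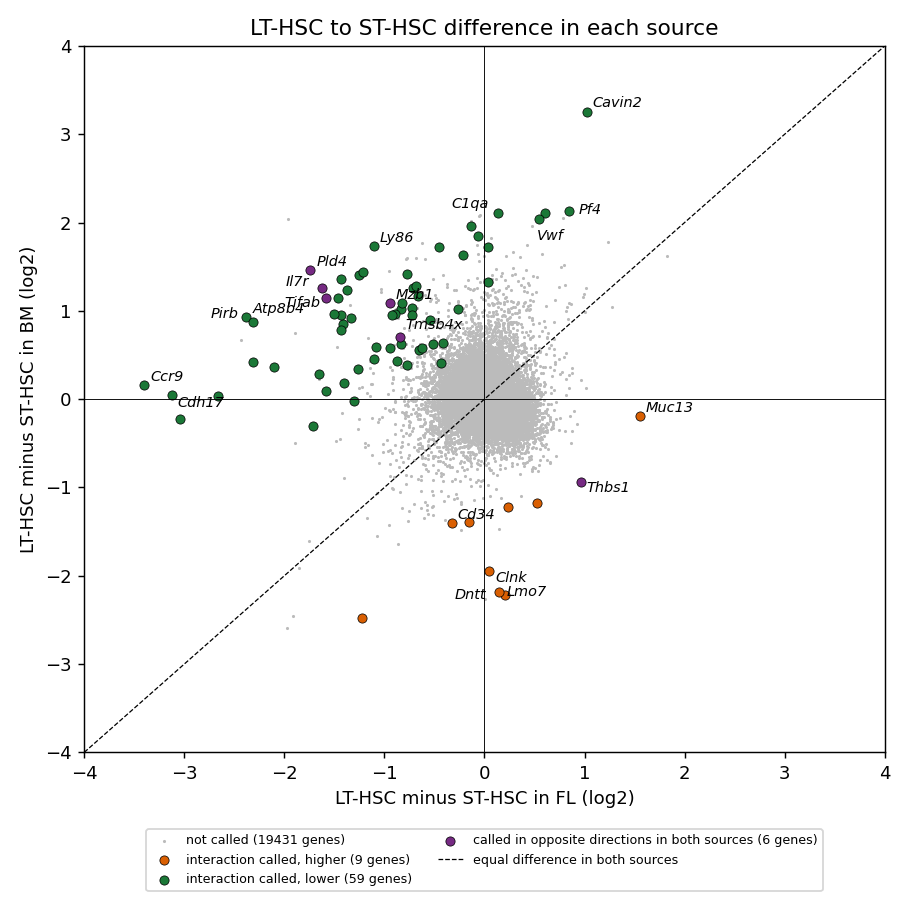
Difference LT-HSC minus ST-HSC (log2) in FL on the horizontal axis and in BM on the vertical axis, 1 point per gene, 19505 genes. Coloured points are the 74 genes called in the interaction. Most lie above the dashed line of equal differences, at left for genes low in FL LT-HSC and at top for genes high in BM LT-HSC, and the 6 purple genes passed the test in both sources with opposite signs.

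Il7r, Pld4, Tifab, Mzb1, Tmsb4x and Thbs1, 6 genes in all, passed the test in both sources with opposite signs, and each was also called in the interaction. In 5 of them LT-HSC were lower than ST-HSC in FL and higher in BM, and Thbs1 was the reverse. Among the 74 called genes, 37 had arrays of LT-HSC and ST-HSC that did not overlap in either source and were ordered oppositely, 34 of them low in FL LT-HSC and high in BM LT-HSC. Over all genes 176 (0.902%) were ordered in this way. The called genes were chosen by the same values, so the larger share among them is a description.

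Il7r encodes the chain of the interleukin-7 receptor that marks early lymphoid progenitors. Its signals were 6.15, 6.23 and 6.64 in FL LT-HSC, against 7.72, 8.43 and 7.74 in FL ST-HSC. In BM they were 7.27, 7.51 and 8.74 in LT-HSC, against 6.56, 6.35 and 6.84 in ST-HSC. The order of the populations was thus reversed between the sources with no overlap, and FL ST-HSC and BM LT-HSC reached the same range. The difference was -1.62 ± 0.29 in FL and 1.26 ± 0.29 in BM, an interaction value of -2.88 ± 0.41 (limma adjusted p = 0.00341). Without BM LT-HSC c the difference in BM was 0.81.

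Pld4, an endolysosomal exonuclease of dendritic and B cells, was at 8.66, 8.09 and 8.26 in FL LT-HSC, against 10.12, 9.97 and 10.14 in FL ST-HSC. BM LT-HSC had 9.84, 10.23 and 11.41, against 8.96, 9.24 and 8.90 in BM ST-HSC. FL LT-HSC lay below every other array. The differences of -1.74 ± 0.26 in FL and 1.46 ± 0.26 in BM gave an interaction value of -3.20 ± 0.37 (limma adjusted p = 0.000495). Tifab, an inhibitor of signalling to NF-kB, showed the same order. It was at 6.65, 6.66 and 6.90 in FL LT-HSC, against 8.21, 8.51 and 8.23 in FL ST-HSC, and at 8.19, 8.76 and 9.72 in BM LT-HSC, against 7.82, 7.76 and 7.65 in BM ST-HSC. Its interaction value was -2.73 ± 0.35 (limma adjusted p = 0.00115). Without BM LT-HSC c the differences in BM were 1.0 for Pld4 and 0.73 for Tifab, and both were still called.

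Mzb1, a chaperone of the endoplasmic reticulum known from antibody-secreting cells, was lowest in BM ST-HSC. Its signals were 6.87, 6.43 and 6.48 in FL LT-HSC, against 7.33, 7.67 and 7.61 in FL ST-HSC. In BM they were 6.76, 6.71 and 7.28 in LT-HSC, against 5.89, 5.91 and 5.70 in ST-HSC. The differences were -0.94 ± 0.21 in FL and 1.09 ± 0.21 in BM. Tmsb4x encodes thymosin beta 4, which binds actin monomers. It was at 8.63, 8.13 and 8.93 in FL LT-HSC, against 9.31, 9.45 and 9.46 in FL ST-HSC, and at 10.14, 10.33 and 9.97 in BM LT-HSC, against 9.46, 9.54 and 9.35 in BM ST-HSC. The ST-HSC of both sources were at nearly one level, with FL LT-HSC below it and BM LT-HSC above it. The differences were -0.84 ± 0.17 in FL and 0.70 ± 0.17 in BM, and in BM LT-HSC array c was not the highest.

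Thbs1, thrombospondin 1 of the platelet granules and matrix, took the other direction. It was at 7.67, 7.92 and 8.56 in FL LT-HSC, against 6.71, 7.19 and 7.36 in FL ST-HSC. The BM arrays read 9.21, 8.66 and 9.35 in LT-HSC, against 9.97, 10.07 and 9.99 in ST-HSC. All 6 BM arrays lay above all 6 FL arrays, and the step between populations was reversed. The differences were 0.96 ± 0.21 in FL and -0.94 ± 0.21 in BM, an interaction value of 1.90 ± 0.30 (limma adjusted p = 0.00593). For all 6 genes the interaction was called in each fit without 1 array. Passing in both sources was less stable. Of the 6, Pld4 did so in every fit without 1 array, and it was the only one without BM ST-HSC b, without BM ST-HSC c and without the 4 narrow arrays. Without FL ST-HSC b or without FL LT-HSC b 2 did so, Pld4 and Tifab. Il7r also did so without FL ST-HSC a or c and without BM LT-HSC a or b, 3 genes in each of these fits.

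Csf1r and Id2 were ordered oppositely as well, though of the sources each passed only in BM. Csf1r, the receptor of macrophage colony-stimulating factor, was at 7.30, 6.81 and 7.25 in FL LT-HSC, against 8.42, 8.35 and 8.37 in FL ST-HSC. Signals in BM were 8.30, 8.98 and 10.08 in LT-HSC, against 7.45, 7.82 and 7.88 in ST-HSC. The interaction value was -2.67 ± 0.41 (limma adjusted p = 0.00546), and -2.19 without BM LT-HSC c. Id2, an inhibitor of E protein transcription factors, had -2.20 ± 0.37 (limma adjusted p = 0.00921). It averaged 7.63 ± 0.14 in FL LT-HSC and 8.41 ± 0.40 in FL ST-HSC, and 8.91 ± 0.69 in BM LT-HSC and 7.48 ± 0.29 in BM ST-HSC (SD, n = 3 each). Its paralog Id3 had -1.86 ± 0.33, with a call lost without FL ST-HSC b and without BM ST-HSC c, at an adjusted p of up to 0.0582. Neither was called without the 4 narrow arrays, with -1.46 for Id2 (adjusted p = 0.055) and -1.23 for Id3 (adjusted p = 0.127).

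**Figure D2:**
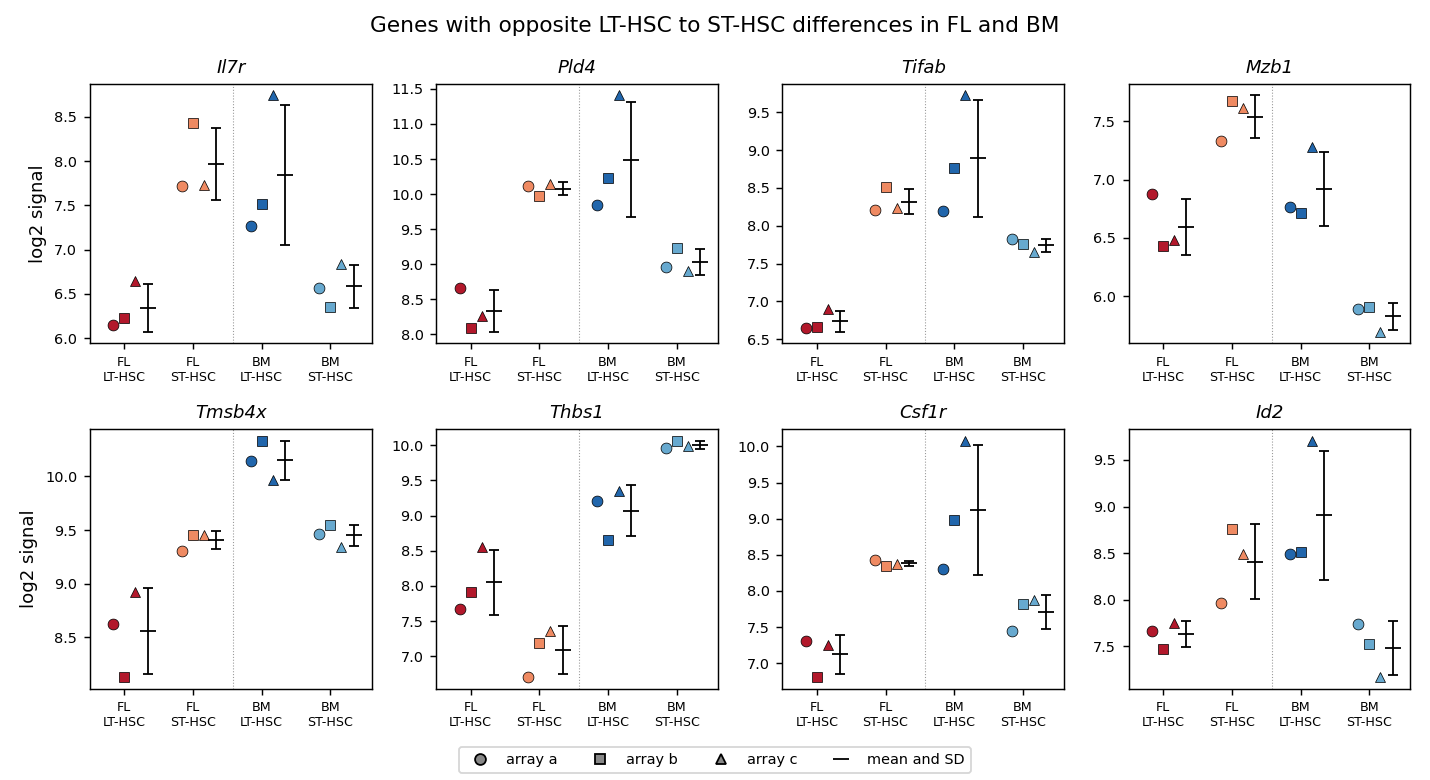
Log2 signal of 8 genes on each array, by group, with symbols for arrays a, b and c and bars for mean and SD (n = 3). In 7 genes FL LT-HSC lie below FL ST-HSC while BM LT-HSC lie above BM ST-HSC, and Thbs1 shows the reverse. BM LT-HSC c is the highest BM LT-HSC array in Il7r, Pld4, Tifab, Mzb1, Thbs1, Csf1r and Id2.

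To say which group drove each of the 74 genes, the group was taken for which the other 3 group means lay closest together. It is said to stand apart where its 3 arrays all lay above, or all below, the 9 arrays of the other groups. Each gene was counted for that group only, although in some genes another group also lay outside all others. Examples are FL LT-HSC, below in Ebf1 and Hp, and BM ST-HSC, below in Igf1 and Fbln1. The group so taken stood apart in 62 of the 74 genes, and in 2065 (10.6%) of all genes. The 74 were chosen by the same values, so the larger share among them is a description. The same holds for the counts of each group that follow, for which no share over all genes was taken. FL LT-HSC stood apart in 17 called genes and was the low group in each of them. FL ST-HSC stood apart in 16, above in 14 and below in 2. BM LT-HSC stood apart in 17, above in 15 and below in 2, and BM ST-HSC in 12, above in 6 and below in 6.

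FL ST-HSC stood above the other groups in Ccr9, Cdh17 and Stc1, among others. Ccr9, the chemokine receptor that guides progenitors to the thymus, was at 6.56, 5.87 and 6.05 in FL LT-HSC, against 9.26, 9.97 and 9.45 in FL ST-HSC. In adult marrow the signals were 6.37, 5.96 and 8.10 in LT-HSC, against 6.56, 6.46 and 6.93 in ST-HSC. FL LT-HSC were 10.5-fold below FL ST-HSC, while the BM groups overlapped. This gave an interaction value of -3.56 ± 0.52 (limma adjusted p = 0.00403), and -2.91 without BM LT-HSC c, the one BM array with a raised signal. Cdh17, the liver-intestine cadherin, had the smallest adjusted p of the named genes (2.44e-05 in limma). It was at 6.42, 5.73 and 5.61 in FL LT-HSC, against 9.09, 8.93 and 9.12 in FL ST-HSC. All 6 BM arrays lay between 5.05 and 5.54. Its interaction value of -3.18 ± 0.28 was carried by a difference of -3.13 ± 0.19 in FL, against 0.05 ± 0.19 in BM.

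Stc1, the secreted glycoprotein stanniocalcin 1, followed the same pattern. It was at 7.21, 7.07 and 7.03 in FL LT-HSC, against 9.33, 10.14 and 9.84 in FL ST-HSC, and at 7.17, 6.94 and 7.0 in BM LT-HSC, against 7.01, 7.27 and 6.74 in BM ST-HSC. The 9 arrays outside FL ST-HSC thus held one level, and the interaction value was -2.70 ± 0.30 (limma adjusted p = 0.000493). St8sia1, the synthase of ganglioside GD3, averaged 6.93 ± 0.22 in FL LT-HSC and 8.65 ± 0.20 in FL ST-HSC, and 5.89 ± 0.37 in BM LT-HSC and 6.19 ± 0.07 in BM ST-HSC (SD, n = 3 each). Pacsin1, a membrane-bending protein of endocytosis, averaged 7.20 ± 0.32 in FL LT-HSC and 8.85 ± 0.19 in FL ST-HSC, and 6.73 ± 0.41 in BM LT-HSC and 6.44 ± 0.17 in BM ST-HSC. In both genes the BM populations overlapped. Pacsin1 missed the threshold without the 4 narrow arrays (adjusted p = 0.0803).

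FL ST-HSC also stood above in Bank1, Fcrl1, Scimp, Rasgrp3 and Gpr174. Bank1, a scaffold of B cell receptor signalling, was at 9.95, 9.30 and 9.41 in FL LT-HSC, against 10.82, 11.09 and 11.06 in FL ST-HSC. In BM it was at 8.64, 8.60 and 9.44 in LT-HSC, against 8.38, 7.98 and 7.96 in ST-HSC. It was lower in LT-HSC by 1.43 ± 0.22 in FL, and did not pass in BM (0.79 ± 0.22). Fcrl1, an Fc receptor-like protein of B cells, had -1.58 ± 0.18 in FL and 0.09 ± 0.18 in BM. Scimp, an adaptor of MHC class II signalling, had -1.10 ± 0.19 in FL and 0.46 ± 0.19 in BM. Rasgrp3, an activator of Ras, had -1.34 ± 0.25 in FL and 0.92 ± 0.25 in BM. Gpr174, a receptor for lysophosphatidylserine, had -1.26 ± 0.18 in FL and 0.34 ± 0.18 in BM, at low signals of 4.17 to 4.19 in FL LT-HSC, against 5.34 to 5.54 in FL ST-HSC. The interaction of each of these 5 genes was called in every fit without 1 array. Without the 4 narrow arrays Scimp (-0.98) and Rasgrp3 (-1.95) missed the threshold, at adjusted p = 0.0803 and 0.0808, and Fcrl1 was called with -1.06, against -1.67 with all arrays.

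Igf1 and Fbln1 were in the same group. Igf1, insulin-like growth factor 1, was at 9.65, 9.44 and 9.28 in FL LT-HSC, against 10.17, 10.34 and 10.38 in FL ST-HSC. BM LT-HSC had 9.16, 9.32 and 9.94, against 8.85, 8.83 and 8.88 in BM ST-HSC. Arrays of the populations did not overlap in either source, and the order was opposite. The differences were -0.84 ± 0.16 in FL and 0.62 ± 0.16 in BM, where it did not pass. Fbln1, the matrix protein fibulin 1, had -0.88 ± 0.15 in FL and 0.43 ± 0.15 in BM, with the same opposite order of arrays.

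FL ST-HSC stood below the other groups in Muc13 and Thbs1. In Thbs1 the BM ST-HSC arrays also lay above all others, so that no single group drove it. Muc13, a membrane mucin, was at 10.05, 10.60 and 10.08 in FL LT-HSC, against 8.48, 9.11 and 8.48 in FL ST-HSC. The BM arrays read 11.80, 11.78 and 11.09 in LT-HSC, against 11.77, 11.74 and 11.74 in ST-HSC. LT-HSC were thus 2.93-fold higher in FL, and the BM groups overlapped. The interaction value was 1.74 ± 0.29 (limma adjusted p = 0.00754).

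FL LT-HSC stood below the other groups in Pirb, Tlr7 and Slamf6, among others. Pirb, an inhibitory immunoglobulin-like receptor of myeloid and B cells, was at 7.90, 7.26 and 7.32 in FL LT-HSC, against 9.87, 9.64 and 9.91 in FL ST-HSC. Signals in BM were 9.88, 9.73 and 10.98 in LT-HSC, against 9.41, 9.39 and 9.16 in ST-HSC. FL LT-HSC were 4.97-fold below FL ST-HSC and more than 1 log2 unit below every other array. This gave an interaction value of -3.19 ± 0.37 (limma adjusted p = 0.000495). Tlr7, the endosomal sensor of single-stranded RNA, was at 7.25, 6.10 and 6.05 in FL LT-HSC, against 9.60, 9.40 and 9.52 in FL ST-HSC. In adult marrow the signals were 8.35, 8.11 and 9.78 in LT-HSC, against 9.32, 8.98 and 8.61 in ST-HSC. Its difference of -3.04 ± 0.35 in FL stood against -0.22 ± 0.35 in BM, an interaction value of -2.81 ± 0.49 (limma adjusted p = 0.0114). The value missed the threshold without BM ST-HSC c at an adjusted p of 0.0514. Without BM LT-HSC c it was -2.30. It was -1.77 without the 4 narrow arrays (adjusted p = 0.0852).

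Slamf6, a receptor of the SLAM family on lymphocytes, was at 5.70, 5.74 and 5.66 in FL LT-HSC, against 6.88, 7.42 and 7.18 in FL ST-HSC. In BM it was at 7.38, 7.25 and 8.27 in LT-HSC, against 6.59, 6.77 and 6.10 in ST-HSC. The 3 FL LT-HSC arrays lay within 0.1 of each other, and the populations were ordered oppositely in the sources. The interaction value was -2.61 ± 0.45 (limma adjusted p = 0.00966). Igfbp5, a secreted binding protein of insulin-like growth factors, had differences of -1.44 ± 0.32 in FL, where it did not pass, and 1.36 ± 0.32 in BM. Atp1b1, a subunit of the sodium-potassium pump, had -1.41 ± 0.27 in FL and 0.85 ± 0.27 in BM. Slc9a9, a sodium-proton exchanger of endosomes, had -1.41 ± 0.19 in FL and 0.18 ± 0.19 in BM. Tmem154, a membrane protein, had -1.08 ± 0.20 in FL and 0.59 ± 0.20 in BM. All 5 were called without any 1 array. Without the 4 narrow arrays, 3 of them missed the threshold, at adjusted p = 0.0869 for Slamf6, 0.0803 for Igfbp5 and 0.0758 for Slc9a9, whose value was -1.02, against -1.59 with all arrays.

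The granule proteases Elane and Ctsg were in this group. Elane, neutrophil elastase, was at 8.47, 8.87 and 8.90 in FL LT-HSC, against 10.76, 10.68 and 11.11 in FL ST-HSC. BM LT-HSC had 11.79, 12.13 and 12.96, against 12.14, 12.01 and 11.65 in BM ST-HSC. The FL populations were separated by about 2 log2 units while those of BM overlapped. This gave an interaction value of -2.46 ± 0.45 (limma adjusted p = 0.0166). The call was lost without FL LT-HSC a, without FL ST-HSC c and without BM ST-HSC c, at an adjusted p of up to 0.0671, and without the 4 narrow arrays (adjusted p = 0.145). Ctsg, cathepsin G, had -2.31 ± 0.41 in FL and 0.42 ± 0.41 in BM, but its call was lost in 8 of the 12 fits without 1 array. These were the fits without any of the 6 FL arrays, BM ST-HSC b or BM ST-HSC c, with an adjusted p of up to 0.154. Without BM LT-HSC c the interaction value of Ctsg was -2.01. Its interaction value was -2.73 with all arrays and -1.69 without the 4 narrow ones (adjusted p = 0.0627). Atp8b4, of the phospholipid flippase family, had an interaction value of -3.30 ± 0.66, and of -2.61 without BM LT-HSC c. Its call was lost without FL LT-HSC a or b, FL ST-HSC b or c, or BM ST-HSC b or c, at an adjusted p of up to 0.113. Without the 4 narrow arrays its value was -1.81 (adjusted p = 0.207).

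**Figure D3:**
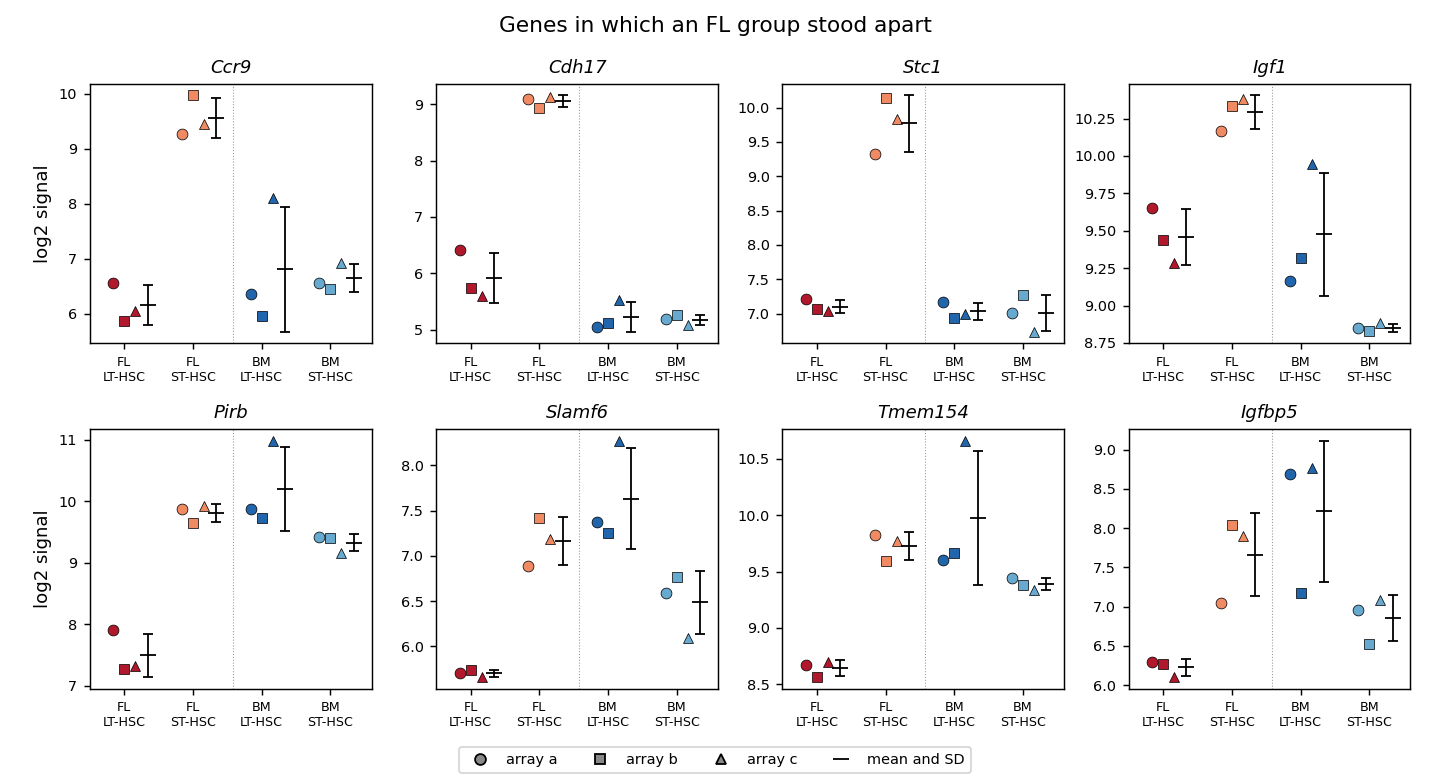
Log2 signal of 8 genes on each array, by group, with symbols for arrays a, b and c and bars for mean and SD (n = 3). In Ccr9, Cdh17, Stc1 and Igf1 the 3 FL ST-HSC arrays lie above the 9 others. In Pirb, Slamf6, Tmem154 and Igfbp5 the 3 FL LT-HSC arrays lie below the 9 others.

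The promoters of 3 of the genes in which FL LT-HSC stood below are shown as examples, and all 3 hold the letters marked. The windows run from 250 bases before to 50 bases after the start site in RefSeq's annotation of GRCm38.p6. Capitals mark GAGGAA on either strand, the core of sites bound by PU.1, an ETS factor of myeloid and B cells. The Pirb window is chr7:3720333-3720632 (minus strand), that of Pld4 is chr12:112760405-112760704 (plus strand) and that of Elane is chr10:79886062-79886361 (plus strand).
Pirb: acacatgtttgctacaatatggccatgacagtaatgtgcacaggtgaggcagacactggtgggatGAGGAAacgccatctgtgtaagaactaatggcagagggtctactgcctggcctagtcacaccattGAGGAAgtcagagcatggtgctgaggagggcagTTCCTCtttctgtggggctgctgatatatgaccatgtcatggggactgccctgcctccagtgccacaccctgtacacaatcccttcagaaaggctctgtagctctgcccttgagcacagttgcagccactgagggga
Pld4: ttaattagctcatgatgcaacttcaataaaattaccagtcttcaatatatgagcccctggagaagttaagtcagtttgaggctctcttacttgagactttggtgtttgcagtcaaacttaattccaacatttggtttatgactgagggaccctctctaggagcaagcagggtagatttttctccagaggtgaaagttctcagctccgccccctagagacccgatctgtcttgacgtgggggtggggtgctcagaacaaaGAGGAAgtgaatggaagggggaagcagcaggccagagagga
Elane: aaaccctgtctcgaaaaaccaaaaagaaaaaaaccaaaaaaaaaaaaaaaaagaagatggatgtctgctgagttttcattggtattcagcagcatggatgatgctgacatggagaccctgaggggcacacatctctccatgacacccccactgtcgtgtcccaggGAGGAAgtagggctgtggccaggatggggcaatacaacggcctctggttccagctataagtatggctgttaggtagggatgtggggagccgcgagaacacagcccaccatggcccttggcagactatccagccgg
The Pirb window held 3 matches and those of Pld4 and Elane 1 each. The letters were found in 7 of the 16 genes with a window (43.8%) among those in which FL LT-HSC stood below. They were not particular to this group. Genes with FL ST-HSC above held them in 5 of 10, those with BM LT-HSC above in 5 of 10, and those with BM ST-HSC above in 4 of 5. All called genes with a window held them in 26 of 57 (45.6%). Of all 15691 genes with a window 30.3% held them, so a match is common, and it describes the letters and not a bound site.

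BM LT-HSC stood above the other groups in Cavin2, Pf4 and Vwf, among others. Cavin2, a coat protein of caveolae that platelets and endothelium carry, was at 6.67, 7.36 and 7.41 in FL LT-HSC, against 6.29, 6.07 and 6.00 in FL ST-HSC. The BM arrays read 9.58, 9.81 and 8.49 in LT-HSC, against 5.75, 6.06 and 6.29 in ST-HSC. LT-HSC were the higher population in both sources, by 1.02 ± 0.26 in FL, where it did not pass, and by 3.26 ± 0.26 or 9.56-fold in BM. The interaction value was -2.24 ± 0.37 (limma adjusted p = 0.00798). Pf4, platelet factor 4, was at 9.52, 9.58 and 9.92 in FL LT-HSC, against 8.98, 8.93 and 8.58 in FL ST-HSC. Signals in BM were 12.03, 12.25 and 11.96 in LT-HSC, against 9.84, 10.20 and 9.80 in ST-HSC. It passed in both sources in the same direction, 1.79-fold in FL and 4.40-fold in BM, so that the sources differed in the size of the step (-1.29 ± 0.22, limma adjusted p = 0.0106). Vwf, von Willebrand factor, had 0.55 ± 0.20 in FL and 2.04 ± 0.20 in BM. Its call was lost without FL LT-HSC a, without FL ST-HSC c and without BM ST-HSC c, at an adjusted p of up to 0.0708.

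The Pf4 promoter is shown because Pf4 is a platelet gene whose step passed in both sources. Capitals mark GAGGAA or AGATAA on either strand, and AGATAA is known from sites bound by GATA factors such as Gata1. The window is chr5:90772185-90772484 of GRCm38.p6 (plus strand).
Pf4: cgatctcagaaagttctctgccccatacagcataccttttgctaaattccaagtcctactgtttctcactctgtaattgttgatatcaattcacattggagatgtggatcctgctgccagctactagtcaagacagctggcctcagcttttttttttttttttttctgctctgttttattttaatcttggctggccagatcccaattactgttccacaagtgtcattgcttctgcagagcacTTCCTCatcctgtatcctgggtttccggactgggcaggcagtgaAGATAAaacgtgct
It held 1 match of each. AGATAA was found in 11.1% of all genes with a window, and in 3 of the 10 with a window among those in which BM LT-HSC stood above. These letters were not particular to that group. Genes with BM ST-HSC above held them in 2 of 5, those with FL ST-HSC above in 2 of 10 and those with FL LT-HSC below in 1 of 16. All called genes with a window held them in 9 of 57 (15.8%).

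Tm4sf1, a membrane protein of endothelial cells, was at 6.62, 6.57 and 6.05 in FL LT-HSC, against 6.39, 6.80 and 6.23 in FL ST-HSC. In adult marrow the signals were 8.58, 8.18 and 8.26 in LT-HSC, against 6.36, 6.69 and 6.43 in ST-HSC. It was thus raised in BM LT-HSC alone, on all 3 arrays alike, by 1.85 ± 0.17, and its interaction value was -1.91 ± 0.24 (limma adjusted p = 0.00115). Ebf1, a transcription factor of early B cells, was at 8.0, 7.51 and 7.98 in FL LT-HSC, against 8.59, 8.67 and 8.38 in FL ST-HSC. In BM it was at 10.04, 10.22 and 10.40 in LT-HSC, against 8.64, 9.11 and 9.11 in ST-HSC. The populations were ordered oppositely in the sources, with an interaction value of -1.98 ± 0.29 (limma adjusted p = 0.00453). Pdgfc, a platelet-derived growth factor, had -0.69 ± 0.20 in FL, where it did not pass, and 1.29 ± 0.20 in BM. In these genes BM LT-HSC c did not lie more than 1 above both other BM LT-HSC arrays.

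The macrophage genes C1qa and Aif1 and the myeloid genes Tyrobp and Ly86 were also high in BM LT-HSC. C1qa, a chain of complement C1q, was at 6.02, 6.35 and 6.25 in FL LT-HSC, against 5.97, 6.18 and 6.07 in FL ST-HSC. BM LT-HSC had 8.81, 9.06 and 10.17, against 6.89, 7.63 and 7.19 in BM ST-HSC. Array c was the highest, but arrays a and b also lay above all 9 others, and the interaction value was -1.98 ± 0.36 with and -1.57 without it. Aif1, a calcium-binding protein of macrophages, had -2.09 ± 0.42 with and -1.69 without array c. For Ly86, a partner of a Toll-like receptor relative on B cells and macrophages, the values were -2.84 ± 0.57 and -2.12, and for the adaptor gene Tyrobp -1.84 ± 0.33 and -1.43. The mean of the 21 macrophage genes was 6.58 to 6.73 in FL LT-HSC, against 6.66 to 6.82 in FL ST-HSC, and 7.71 to 8.82 in BM LT-HSC, against 7.27 to 7.42 in BM ST-HSC. The part of macrophage RNA in these values was not tested. Fewer cells of a type and less RNA per cell cannot be told apart in such samples. Calls were lost without FL LT-HSC a, FL ST-HSC b or BM ST-HSC c for C1qa and without FL LT-HSC b or BM ST-HSC c for Tyrobp, at an adjusted p of up to 0.0602 and 0.0603. The call for Aif1 was lost without FL LT-HSC a or b, FL ST-HSC b or c, or BM ST-HSC c (up to 0.106). That for Ly86 was lost without any of the FL LT-HSC arrays, FL ST-HSC a or b, or BM ST-HSC c (up to 0.1001).

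Over all 74 called genes BM LT-HSC c was the highest BM LT-HSC array in 48, against 8174 of all 19505 genes, and in 20 it lay more than 1 above both others. All 74 genes were still called without it, and of the 64 with a negative value 57 were then still higher in LT-HSC than in ST-HSC in BM, against 61 with it. The 64 were chosen by values that include the BM difference, so this count is a description. A further 443 genes were called only once BM LT-HSC c was left out.

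BM LT-HSC stood below the other groups in Cd34 and Tespa1. Cd34, the sialomucin used to tell adult LT-HSC from later cells, was at 11.78, 11.86 and 11.51 in FL LT-HSC, against 12.06, 11.97 and 12.11 in FL ST-HSC. The BM arrays read 10.79, 10.63 and 10.34 in LT-HSC, against 12.01, 11.96 and 12.00 in ST-HSC. The ST-HSC of both sources and the FL LT-HSC lay within a range of 0.6, and BM LT-HSC were 2.64-fold below BM ST-HSC. This gave an interaction value of 1.07 ± 0.18 (limma adjusted p = 0.00789), and without the 4 narrow arrays the adjusted p was 0.0664. Tespa1, a signalling protein of thymocyte selection, was lower in LT-HSC in both sources. It had -1.22 ± 0.18 in FL and -2.48 ± 0.18 in BM, where LT-HSC averaged 8.06 ± 0.37 and ST-HSC 10.54 ± 0.04 (SD, n = 3 each). Its call was lost without FL LT-HSC a or b, FL ST-HSC b, BM ST-HSC b or c, or arrays a or b of BM LT-HSC, at an adjusted p of up to 0.0971.

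BM ST-HSC stood above the other groups in Clnk, Lmo7, Vldlr, Dntt, Dnajc6 and Mc5r. Clnk, an adaptor of immune receptor signalling, was at 7.29, 6.80 and 6.61 in FL LT-HSC, against 6.77, 7.05 and 6.73 in FL ST-HSC. Signals in BM were 7.7, 7.75 and 7.16 in LT-HSC, against 9.55, 9.41 and 9.50 in ST-HSC. The interaction value of 2.00 ± 0.28 (limma adjusted p = 0.00341) came from the BM difference of -1.95 ± 0.20. Lmo7, a LIM domain protein of cell junctions, was at 4.09, 3.95 and 3.98 in FL LT-HSC, against 3.95, 3.88 and 3.76 in FL ST-HSC. In adult marrow the signals were 4.76, 4.57 and 3.77 in LT-HSC, against 6.97, 6.76 and 5.92 in ST-HSC. Its interaction value was 2.33 ± 0.36 (limma adjusted p = 0.00598), with FL signals near the bottom of the scale. Vldlr, a receptor of the low-density lipoprotein receptor family, averaged 7.13 ± 0.14 in FL LT-HSC and 7.29 ± 0.12 in FL ST-HSC, and 7.33 ± 0.25 in BM LT-HSC and 8.72 ± 0.12 in BM ST-HSC (SD, n = 3 each).

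Dntt, the polymerase that adds bases at antigen receptor joints, had the largest positive value, 2.42 ± 0.51 (limma adjusted p = 0.0454). It was at 5.52, 5.10 and 4.95 in FL LT-HSC, against 5.10, 4.79 and 5.06 in FL ST-HSC, and at 5.91, 6.09 and 7.83 in BM LT-HSC, against 9.40, 8.42 and 8.67 in BM ST-HSC. In BM LT-HSC array c was the highest again. The interaction value was 3.03 without that array and 3.65 without the narrow arrays, which leaves BM ST-HSC a, the highest of its group. The call was lost without any of the 6 FL arrays, BM ST-HSC c, or BM LT-HSC array a or b, at an adjusted p of up to 0.125. Dnajc6 was high in both BM populations, with means of 6.11 in FL LT-HSC and 5.87 in FL ST-HSC, and 8.11 in BM LT-HSC and 9.33 in BM ST-HSC. Its call was lost without any of the 6 FL arrays or BM ST-HSC c (up to 0.124). That for Mc5r was lost without any of the FL LT-HSC arrays, FL ST-HSC a or b, or BM ST-HSC b or c (up to 0.106).

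BM ST-HSC stood below the other groups in Cdh5, Kdr, Stxbp6, Ramp2, Id3 and Mzb1. In Id3 and Mzb1 the FL ST-HSC arrays also lay above all others. Cdh5, the cadherin of endothelial junctions, was at 8.97, 8.52 and 9.14 in FL LT-HSC, against 8.62, 8.90 and 9.0 in FL ST-HSC. In BM it was at 7.57, 8.05 and 7.71 in LT-HSC, against 6.12, 5.96 and 6.09 in ST-HSC. It did not separate the FL populations (0.04 ± 0.21), while BM LT-HSC were 3.29-fold above BM ST-HSC. The interaction value was -1.68 ± 0.30 (limma adjusted p = 0.0119), and without the 4 narrow arrays, 2 of which are BM ST-HSC, the adjusted p was 0.124. Kdr, a receptor of vascular endothelial growth factor, had 0.61 ± 0.21 in FL and 2.10 ± 0.21 in BM. Its call was lost without FL LT-HSC a or b, FL ST-HSC b or c, BM ST-HSC b or c, or BM LT-HSC b, at an adjusted p of up to 0.112, and without the 4 narrow arrays (adjusted p = 0.26).

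**Figure D4:**
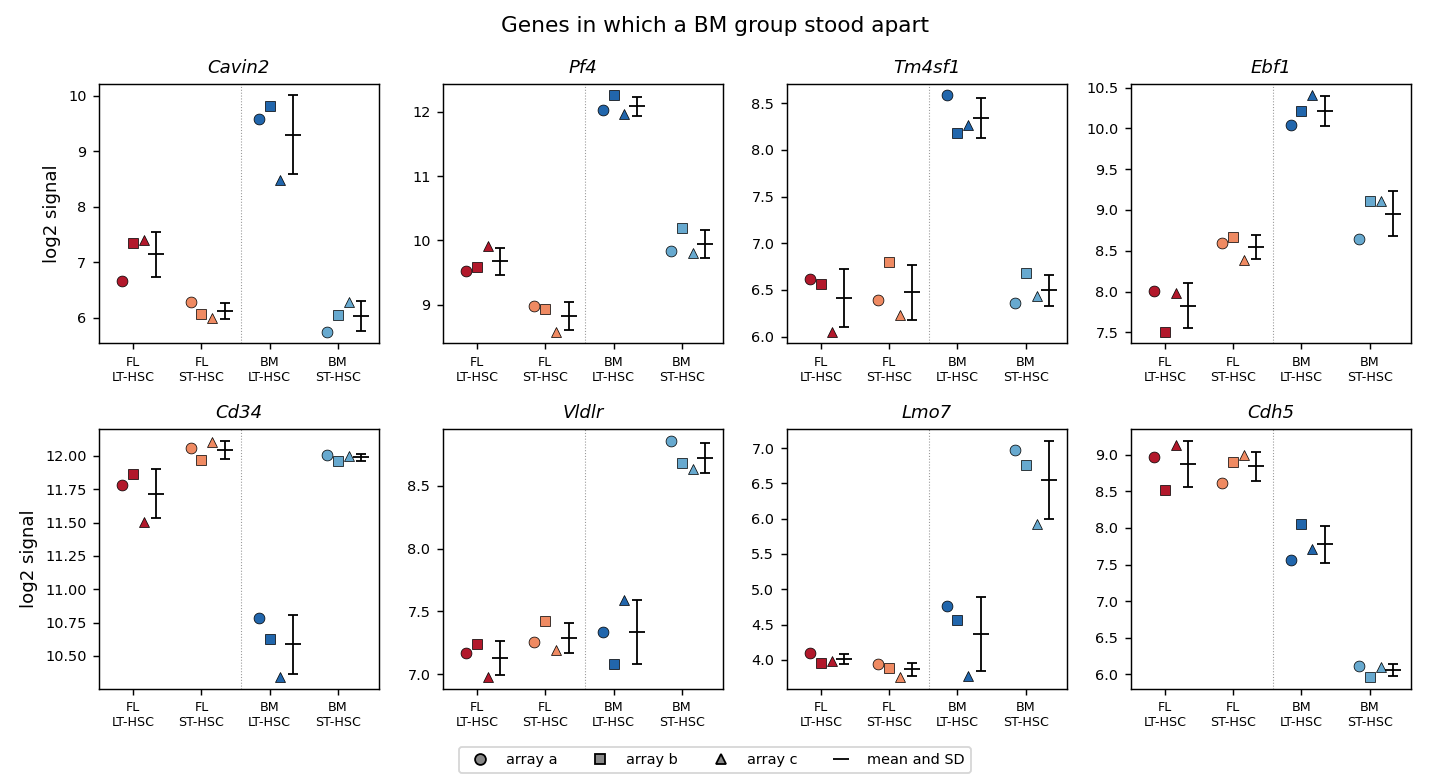
Log2 signal of 8 genes on each array, by group, with symbols for arrays a, b and c and bars for mean and SD (n = 3). In Cavin2, Pf4, Tm4sf1 and Ebf1 the 3 BM LT-HSC arrays lie above the 9 others, and in Cd34 below them. The BM ST-HSC arrays lie above the 9 others in Vldlr and Lmo7, and below them in Cdh5.

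Gene lists were read by their counts and medians, beside 74 of 19505 genes called and a median of 0.003 over all genes. Over all 19505 genes 9683 values were negative, and 2464 genes had an unadjusted p under 0.05 in limma. LT-HSC were higher in 18 and lower in 91 of all genes in FL, and higher in 236 and lower in 98 in BM. Of 18 multipotent and lymphoid priming genes, 3 had a higher (Cd34, Dntt and Tespa1) and 2 a lower interaction value (Il7r and Ccr9). The median of this list was -0.25, and its sign turned with every array scaled to one interquartile range (0.03) and without the narrow arrays (0.14). It was -0.16 without BM LT-HSC c. LT-HSC were lower than ST-HSC for 6 of these genes in FL and 8 in BM, and higher for none in FL and 1 in BM. Of 26 cytokine receptors, Csf1r and Il7r passed, both lower. Of 15 B cell genes Ebf1 and Bank1 passed, with 14 of 15 values negative and a median of -1.14, or -0.71 without BM LT-HSC c. Jchain, the joining chain of antibodies, did not pass (-2.12 ± 0.62), and had -1.36 without that array.

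Of 32 myeloid priming genes, 5 were lower (Elane, Ctsg, Csf1r, Fcgr3 and Hp) and 27 of 32 values were negative. The median difference between LT-HSC and ST-HSC was -0.37 in FL and 0.36 in BM, an interaction median of -0.74. Without BM LT-HSC c the median was -0.37 in FL and 0.02 in BM, with an interaction median of -0.48. Over all genes that fit called 173 higher and 344 lower, against 10 and 64 with all arrays. Of the 32 genes it called 9, all lower. The count was 3 after quantile normalization, 2 without the 4 narrow arrays and 1 with one interquartile range. Fcgr3, an activating Fc receptor, was lost without FL ST-HSC a, b or c, FL LT-HSC b or c, or BM ST-HSC c. Hp, haptoglobin, was lost without FL LT-HSC a, FL ST-HSC b or c, or BM ST-HSC c. The highest adjusted p in these fits was 0.103 for Fcgr3 and 0.0882 for Hp, and without the 4 narrow arrays Hp missed the threshold at 0.0521. None of 15 neutrophil granule genes passed in limma, 6 had an unadjusted p under 0.05, all lower, with a median of -0.99, or -0.47 without BM LT-HSC c. Of 21 macrophage genes 3 were lower, with a median of -0.63, or -0.41 without that array.

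Of 24 megakaryocyte and platelet genes 3 were lower (Pf4, Vwf and Cavin2) and Thbs1 was higher, with a median of -0.24. LT-HSC were higher than ST-HSC for 5 of them in FL and 14 in BM, and lower for none in FL and 1 in BM. The mean signal of the list was 8.77 to 8.93 in FL LT-HSC, against 8.30 to 8.42 in FL ST-HSC, and 9.53 to 9.59 in BM LT-HSC, against 8.58 to 8.68 in BM ST-HSC. LT-HSC were thus the higher population on every array in both sources, and BM LT-HSC c did not stand apart. Of 18 endothelial genes Cdh5 and Kdr were lower, with a median of -0.27. Leaving out BM LT-HSC c, 4 were lower, against 344 of all genes, with a median of -0.42. With one interquartile range the median was -0.09, with 3 lower, against 53 of all genes. Among 34 LT-HSC-associated genes Vwf and Cavin2 were lower, with a median of -0.05 that was -0.37 without BM LT-HSC c and turned to 0.05 after quantile normalization and 0.16 with one interquartile range.

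Cell cycle and immediate early lists held no called gene in limma. Of 55 G2M phase genes 25 had an unadjusted p under 0.05, and 53 values were negative, with a median of -0.46. Over all 19505 genes these counts were 2464 and 9683. In BM 18 of the 55 were higher in LT-HSC than in ST-HSC, against 236 of all genes, and in FL none passed. The list mean was 9.64 in BM ST-HSC a, against 9.17 and 8.96 in BM ST-HSC b and c, which are narrow arrays. Without the 4 narrow arrays, which leaves array a alone in BM ST-HSC, the interaction median was -0.09. Bub1, a kinase of the spindle checkpoint, had -1.52 ± 0.41 in the interaction, and -0.47 without the narrow arrays. Of 39 immediate early genes 11 had an unadjusted p under 0.05, all higher, with a median of 0.32. It was 0.17 without BM LT-HSC c, and 0.66 with one interquartile range, where 2 were called higher, against 18 of all genes. Without BM LT-HSC c 344 of all genes were called lower and 173 higher. Among them were 2 G2M phase genes, lower, and 3 immediate early genes, higher. In BM 11 were lower in LT-HSC than in ST-HSC, and in FL 3. Nr4a1, an immediate early nuclear receptor, was at 11.10, 9.42 and 8.66 in BM LT-HSC, against 11.79, 12.17 and 12.00 in BM ST-HSC. It had an interaction value of 2.26 ± 0.52 (limma adjusted p = 0.0723), and its spread within BM LT-HSC was wide. Among 22 stromal and stellate cell genes Igfbp5 passed. Of 38 interferon response genes none passed, while 15 had an unadjusted p under 0.05, 2 higher and 13 lower.

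**Figure D5:**
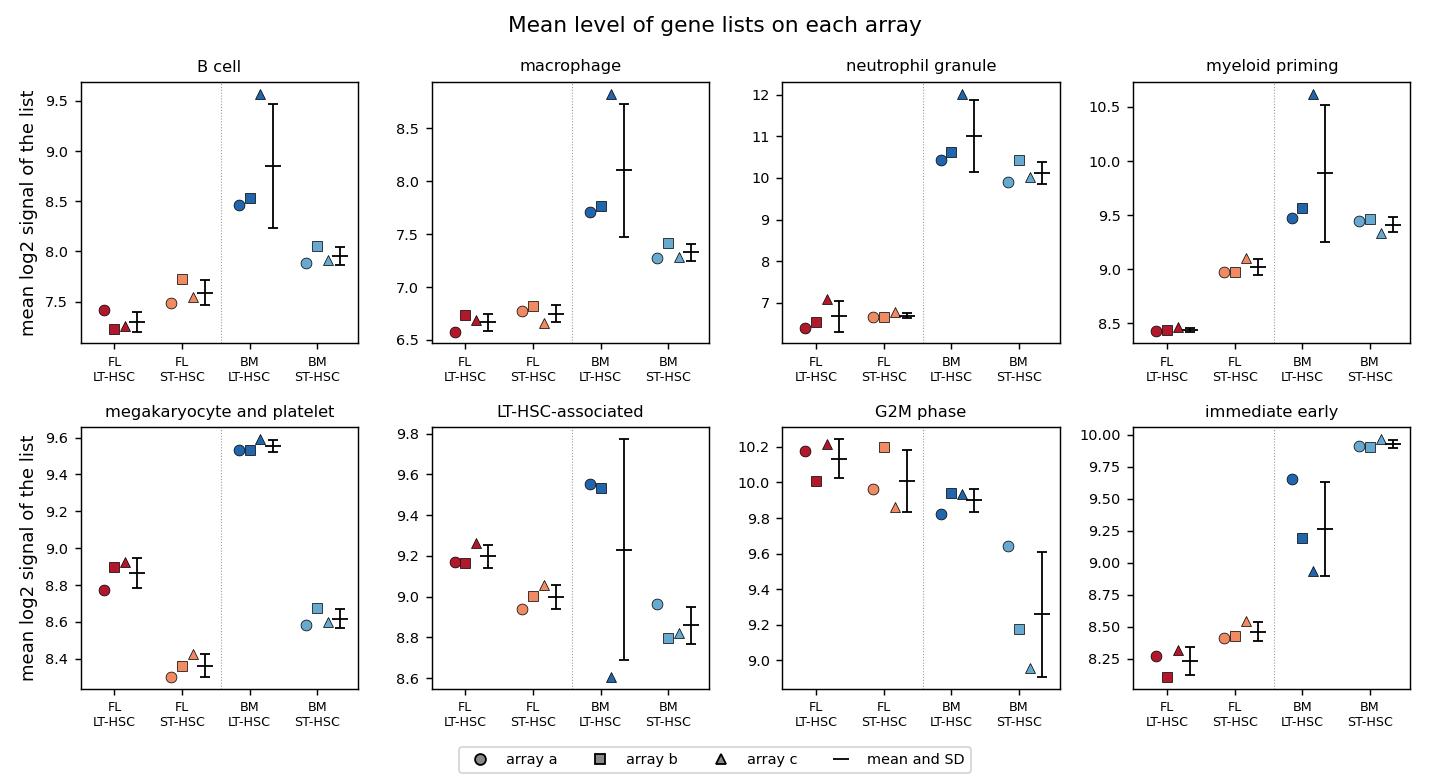
Mean log2 signal of 8 gene lists on each array, by group, with symbols for arrays a, b and c and bars for mean and SD (n = 3). BM LT-HSC c lies above arrays a and b in B cell, macrophage, neutrophil granule and myeloid priming genes and below them in LT-HSC-associated genes. Megakaryocyte and platelet genes are higher in LT-HSC than in ST-HSC on all arrays of both sources.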

How the data were processed

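RNA input was 2 ng, amplified by 10 PCR cycles (GeneChip Pico), per the labels' protocols. The authors deposited log2 signals per probe set, made in R 3.5.01 with oligo, per the submitters' processing notes. How background and array differences were handled is not given in the sources used here. Of 22203 probe sets, 19572 carried 1 gene symbol, all matched by gene ID to RefSeq (GRCm38.p6), and 2631 carried none. The brightest probe set of a symbol was kept, leaving 19505 genes. In limma 3.58.1 (R 4.3.3), the means of 6 groups were fitted to the 18 arrays, with Benjamini-Hochberg adjustment over all genes. Errors of differences are standard errors of this fit. The median standard error of the interaction was 0.24, and precision is limited by the number of arrays. The fit was tested on simulated data with independent noise on each array. The narrow arrays and the deviation of BM LT-HSC c were not simulated, so that test does not cover them. The comparison, lists and rules were chosen with earlier results of these data known. Genes named are the 12 largest values each way among called genes separated in a source, filled up by smallest p, up to 8 opposite genes, 6 per group standing apart, 3 per list and the sort markers. Other called genes, and members named to explain a count, were chosen after their values were seen. Most alternatives changed 1 choice at a time. Limma's trend and robust options were set at once. Scaling every array to one interquartile range also centred the arrays on one median, and was chosen after seeing the data.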

Additional observations from a re-analysis of the deposited data

Results flagged for a closer look

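The difference between LT-HSC and ST-HSC was itself tested between FL and BM, and 74 genes passed. Of these, 6 passed in both sources with opposite signs. Their interaction values were -3.20 for Pld4, -2.88 for Il7r, -2.73 for Tifab, -2.03 for Mzb1, -1.54 for Tmsb4x and 1.90 for Thbs1. Without BM LT-HSC c the values were -2.74, -2.43, -2.31, -1.85, -1.63 and 2.04, in the same order. That array had the highest B cell, macrophage and neutrophil granule means. All 6 genes still passed in both sources with opposite signs without it. In the fit to the 12 arrays only, none of the 6 did so, and without BM ST-HSC b or c only Pld4 did.

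Probe sets without a gene symbol were not part of the gene tests. Fitted together with all others, 10 of 2631 (0.380%) passed in the interaction, 3 higher and 7 lower, with absolute values of up to 3.44. They are unnamed here.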

How the results depend on the processing

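Leaving out 1 array in turn gave 40 to 517 called genes in the interaction, 58 to 232 for LT-HSC against ST-HSC in FL, 101 to 812 in BM, and 1 to 13 called oppositely in both sources. The low counts came without BM ST-HSC b (152 in BM) or c, FL LT-HSC b or FL ST-HSC a, b or c (63, 68 and 66 in FL), and the high ones without BM LT-HSC c, BM ST-HSC a (303 in the interaction, 685 in BM) or BM LT-HSC a (137 in the interaction). In the order interaction, FL, BM and opposite, the counts were 24, 42, 97 and 0 with the 12 arrays only, and 2159, 180, 4940 and 20 with array weights. They were 231, 206, 836 and 21 with the interquartile range as a covariate. Without FL ST-HSC b and c, which leaves 1 array, they were 7, 20, 259 and 0, and without the arrays described as sgEzh2 38, 45, 232 and 1. A fold of at least 2 left 54 genes in FL, 158 in BM and 3 opposite, and without the 4 narrow arrays 211 passed in FL. In BM the split of higher to lower was 236 to 98 as deposited, 172 to 137 after median centring, 275 to 201 after quantile normalization and 233 to 227 with one interquartile range. In the interaction the split without the 4 narrow arrays was 45 to 57, and 44 of the 74 genes were called there. Values of Kit (-0.019 without BM LT-HSC c, -0.020 with array weights), Slamf1 (-0.029 and -0.14, with up to 0.35 when other arrays were left out) and Cd48 (0.21 without the 4 narrow arrays), none of them called, changed sign. The cause was not tested. Fewer arrays entered the fits that leave arrays out, and the fit without the 4 narrow arrays held array a alone in BM ST-HSC. At an unadjusted p under 0.05, limma gave 1664 genes in the interaction with the 12 arrays only and 1604 without FL ST-HSC b and c, against 2464. The deviations of same-lettered LT-HSC and ST-HSC from their group means correlated at 0.10, -0.12 and 0.002 in FL and 0.42, -0.46 and 0.32 in BM. For different letters in BM the correlations ran from -0.54 to 0.55. Deviations of the 3 arrays of a group cancel out, so these correlations cannot tell whether a letter marks a shared animal or day. With letters as a replicate block 61, 94, 244 and 6 genes passed with a fixed block and 90, 113, 394 and 7 with a random one.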

Other observations

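Prg2, H2-DMb2, Slc7a8 and Sparc did not pass in the interaction with all arrays. Prg2, the major basic protein of eosinophil granules, had the largest absolute value of the named genes, -4.01 ± 0.89 (limma adjusted p = 0.0595). It was at 6.41, 7.23 and 7.34 in FL LT-HSC, against 8.47, 9.27 and 9.15 in FL ST-HSC, and at 9.72, 10.83 and 11.49 in BM LT-HSC, against 6.99, 10.31 and 8.63 in BM ST-HSC. The BM ST-HSC arrays spread over more than 3 log2 units, and the adjusted p was 0.0443 without BM LT-HSC c. Without the 4 narrow arrays the value was -5.37, with BM ST-HSC a, the lowest of its group, as the remaining array. H2-DMb2, a chaperone of MHC class II loading, was lower in FL LT-HSC than in FL ST-HSC by 1.15 ± 0.18 and differed by 0.04 ± 0.18 in BM (interaction adjusted p = 0.0513 in limma). Slc7a8, an amino acid transporter, was higher in FL LT-HSC than in FL ST-HSC by 0.89 ± 0.15 and differed by -0.13 ± 0.15 in BM (interaction adjusted p = 0.0503 in limma). Sparc, a collagen-binding matrix protein, had -0.14 ± 0.45 in FL and 2.02 ± 0.45 in BM, and its interaction did not pass (adjusted p = 0.173 in limma).

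Erythroid genes varied within groups more than between them. The mean of 23 genes ran from 8.10 to 9.98 in FL LT-HSC, against 8.20 to 9.22 in FL ST-HSC, and from 8.49 to 9.25 in BM LT-HSC, against 8.35 to 9.32 in BM ST-HSC. None passed in the interaction with all arrays. The interaction median was 0.26 with all arrays. Without the 4 narrow arrays it was 1.70, and BM ST-HSC was then array a alone, which had the highest mean of its group.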
